A study of Mus musculus with 6 samples.

Results

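The genes described here carry, take up or store fatty acids and other small lipids: Apod, Fabp3, Fabp4, Fabp5, Fabp7, Cd36, Lpl, Pparg, Plin2 and Cidec. They were taken by name from the probe sets that the platform annotation assigns to exactly 1 gene symbol, and all 10 were measured, out of 22180 genes in the table. For a gene with several probe sets, the one with the highest mean over the 6 arrays was used. Total RNA from untreated mouse cells had been labelled with biotin and measured on 6 arrays, 3 from SLK wild-type cells and 3 from SLK knockout cells. Both groups are NeuNDL-derived cells, that is, mammary tumour cells transformed by an activated form of the receptor tyrosine kinase Neu (ErbB2), and SLK is a Ste20-like kinase that acts in focal adhesion turnover and cell movement. All cultures were grown with fetal bovine serum and a mammary epithelial growth supplement, so both genotypes had lipids and hormones from the medium. The series names passages 9, 19 and 29, but no label ties a passage, a clone or a separate culture to an array. Spread between arrays of a group may therefore be technical.

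Fatty acids do not dissolve well in water, and cells handle them through binding proteins. Lipoprotein lipase frees them from circulating triglyceride, CD36 helps them across the membrane, small fatty acid-binding proteins hold them inside the cell, and surplus is stored as triglyceride in droplets coated by perilipins. PPARG is a nuclear receptor that fatty acids can activate and that switches on many of these genes in adipocytes, Fabp4 among them. In the mammary gland the same machinery serves milk fat, and apolipoprotein D, a lipocalin secreted by many epithelia and by glia, binds arachidonic acid, progesterone and other small hydrophobic molecules.

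Values are the deposited log2 signals, so a difference of 1 is a doubling of the signal. Array medians lay between 3.93 and 3.97. The targeted gene, Slk, went from 8.28 ± 0.07 to 7.18 ± 0.03 (SD, n = 3 per genotype), a knockout minus wild-type difference of -1.10 (SE 0.06; limma, adjusted p = 0.0021), and was lower on every knockout array. Signals of different probe sets depend on the probes, so levels are compared between arrays and not between genes. The share of genes with a lower signal on the same array is given only to show how dim a probe set was.

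Apod and Fabp4 were chosen by their log2 difference between the genotypes on these same arrays, and the others because of their function. The difference between the genotypes is for this reason described for all members, with no p-value. In knockout cells Apod had 2.40 times and Fabp4 1.90 times the wild-type signal, Cidec was 1.24-fold lower, and the remaining members differed by at most 0.21 log2 units in either direction. The median difference over the members was 0.00, as it was over all genes. With limma and Benjamini-Hochberg adjustment over all genes at 0.05, 2 members passed as higher and 0 as lower. Of all genes 0.437% passed, 0.325% as higher and 0.113% as lower. Since this contrast chose Apod and Fabp4, nothing is read from that count. An unadjusted p under 0.05 was found for 3 members and for 10.2% of all genes.

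Apod is the secreted carrier of the set. Its upstream sequence is printed because this gene had the largest difference of the members. The sequences of Cidec, the member that was lower on every knockout array, stand beside it. Each run is the 250 bases before an annotated transcript start, 5′ to 3′ on the gene's strand, from RefSeq on GRCm38.p6. Apod lies at chr16:31314809-31315058, the upstream Cidec start at chr6:113435761-113436010 and the downstream one at chr6:113434765-113435014, all on the minus strand. Capitals mark an exact match to a motif named after the sequences.
Apod: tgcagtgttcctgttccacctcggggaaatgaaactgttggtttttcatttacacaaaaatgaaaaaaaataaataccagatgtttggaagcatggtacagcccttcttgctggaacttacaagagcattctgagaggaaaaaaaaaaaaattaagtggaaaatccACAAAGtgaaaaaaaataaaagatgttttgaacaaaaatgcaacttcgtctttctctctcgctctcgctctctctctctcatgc
Cidec, upstream start: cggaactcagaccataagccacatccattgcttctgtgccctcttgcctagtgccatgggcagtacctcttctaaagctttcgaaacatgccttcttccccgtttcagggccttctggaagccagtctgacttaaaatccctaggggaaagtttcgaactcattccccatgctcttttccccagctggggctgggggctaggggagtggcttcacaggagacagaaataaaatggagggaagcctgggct
Cidec, downstream start: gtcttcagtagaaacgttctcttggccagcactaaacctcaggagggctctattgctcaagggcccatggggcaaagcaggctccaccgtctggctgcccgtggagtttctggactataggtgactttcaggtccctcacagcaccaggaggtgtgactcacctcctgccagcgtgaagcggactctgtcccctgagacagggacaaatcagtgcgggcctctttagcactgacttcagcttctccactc
The promoter table held 10 windows for 7 of the members, among them Apod, Cidec and Pparg. It held none for Fabp4, Fabp5 or Lpl, so their promoters were not searched and the counts below do not cover them. Each window of 300 bases, 250 before the start and 50 after it, was searched on both strands for 5 motifs. No motif contains another except DR1, which holds a pair of half-sites. The nuclear receptor half-site AGGTCA was found in 5 of the 10 windows and in 16.3% of all 32851 windows in the table. It was in those of Plin2, Cd36 and Fabp7 and in 2 of the Pparg windows, and not in those of Apod or Cidec. DR1, the arrangement of half-sites bound by PPAR and RXR, was searched as AGGTCANAGGTCA and had a match in 0 member windows and in 0.0396% of all windows. The C/EBP palindrome TTGCGCAA likewise had a match in 0 member windows and in 0.183% of all. A SOX core, ACAAAG or ACAATG, was in 3 member windows and in 28.6% of all windows. The 3 were the windows of Apod and Cd36 and the downstream window of Cidec. The Apod match before the start is in capitals. A further Apod match and the Cidec match lie after the start and are not printed. The E-box CACGTG was in 1 member window, that of Plin2, and in 7.15% of all. These matches are a description of letters in short windows.

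Apod gave 3.62, 3.63 and 3.61 on wild-type arrays 1 to 3 and 4.84, 4.90 and 4.90 on knockout arrays 1 to 3. The groups were 1.21 apart at their closest, and the spread within either was at most 0.04 (SD, n = 3). The difference was 1.26 (SE 0.05), which ranked 7 among all genes by size. On wild-type arrays the Apod signal exceeded that of 36.5% to 38.2% of genes, and on knockout arrays that of 54.4% to 55.1%, so the wild-type value was in the dim range where array signals compress differences. Leaving out any single array gave 1.25 to 1.28. The gene passed the threshold in all 12 alternative analyses, but these reuse the arrays that chose it, so nothing is read from those calls. The share of all genes that passed varied between the alternatives. It was, for example, 0.0271% with the replicate number as a block and 1.33% without the dimmest 30% of genes. With an intensity trend in the variance it was 1.99%.

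**Figure D1:**
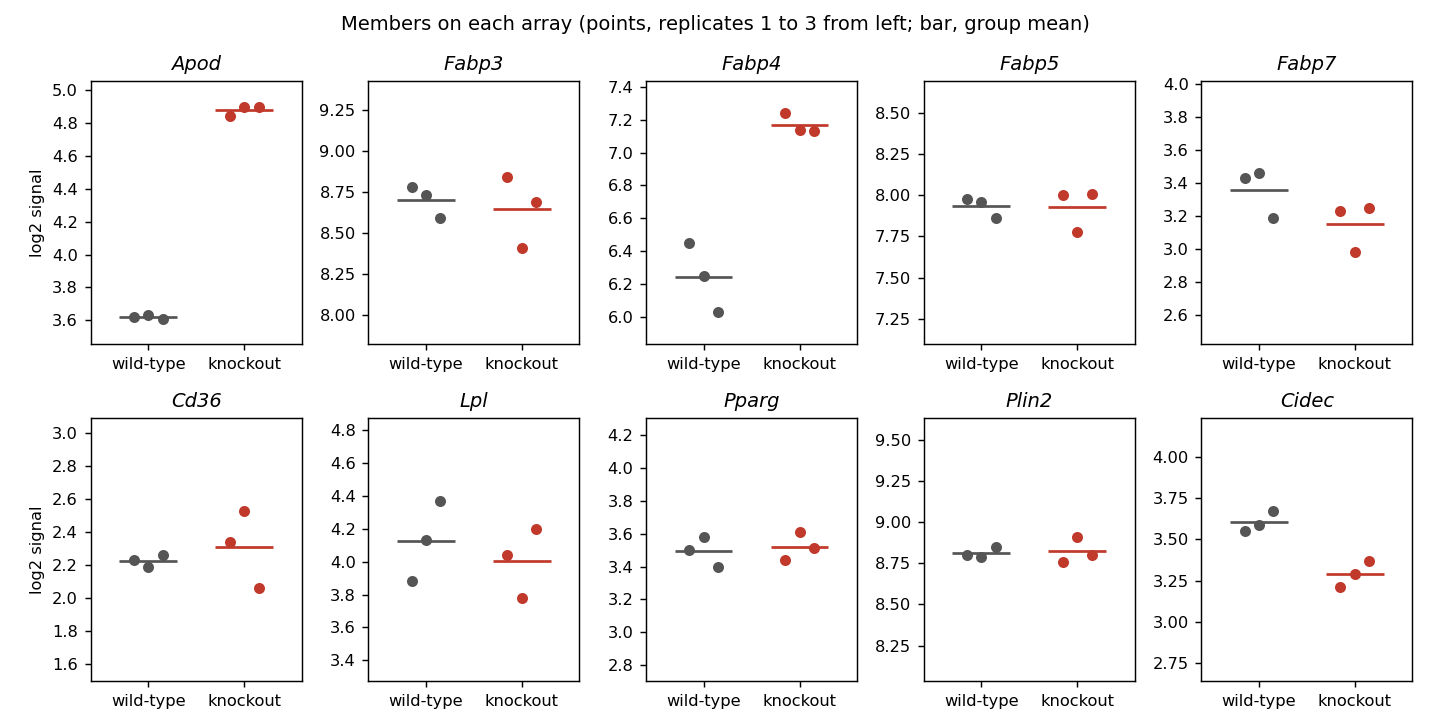
log2 signal of each of the 10 genes (panels) on the 3 wild-type and 3 knockout arrays; points are arrays, bars are group means, and every vertical axis spans the same number of log2 units. The groups are apart for Apod (1.21 at the closest), Fabp4 (0.68) and Cidec (0.18) and overlap for the other genes.

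The 3 genes outside the set whose values lay closest to those of Apod over the 6 arrays, each centred on its own mean, were Lama4, Mamdc2 and Ptprn. Their root mean square differences from Apod were 0.041, 0.070 and 0.088 log2 units. Lama4, a laminin chain of basement membranes, had 4.94 ± 0.04 in wild-type and 6.17 ± 0.01 in knockout cells (SD, n = 3 each). Mamdc2, which encodes an extracellular matrix protein, had 5.84 ± 0.07 and 7.19 ± 0.03. Ptprn, a protein of dense-core granules, had 6.47 ± 0.10 and 7.61 ± 0.09. All 3 had a step between the genotypes of the size seen for Apod, which this measure of likeness favours.

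Among the intracellular carriers, Fabp4, the adipocyte fatty acid-binding protein that is also made by macrophages and capillary endothelium, gave 6.45, 6.25 and 6.03 on wild-type arrays 1 to 3. On knockout arrays 1 to 3 it gave 7.24, 7.14 and 7.13. The groups did not overlap and were 0.68 apart at their closest, but the wild-type arrays spread more widely (SD 0.21) than the knockout arrays (SD 0.06). The difference was 0.92 (SE 0.11), which ranked 26 among all genes by size. Fabp4 was not a dim probe set: it exceeded 64.7% to 68.6% of genes on wild-type arrays and 76.4% to 77.6% on knockout arrays.

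With single arrays left out, the Fabp4 difference was 1.03 without wild-type 1, 0.93 without wild-type 2 and 0.82 without wild-type 3. It was 0.89 without knockout 1 and 0.94 without knockout 2 or knockout 3. Of these 6 fits only the one without wild-type 1, the highest wild-type array, still had Fabp4 past the threshold, and the fit with the replicate number as a block did not. All of them reuse arrays that chose Fabp4, so the calls are a description. The 3 genes closest to Fabp4 over the 6 arrays were Ace, a surface peptidase (root mean square difference 0.079), the Wnt antagonist Nkd2 (0.088) and Csn3, which encodes kappa-casein (0.091). Their differences were 0.86, 0.93 and 0.90, near that of Fabp4, which this measure of likeness favours.

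Fabp5, the epidermal fatty acid-binding protein, gave 7.98, 7.96 and 7.86 in wild-type and 8.00, 7.78 and 8.01 in knockout cells. Its groups overlapped, and the difference was 0.00 (95% interval -0.19 to 0.19). Copies of its sequence exist in the mouse genome as pseudogenes and can share its probes, so its values are uncertain in that respect. Its 3 other probe sets gave differences of 0.01, 0.08 and 0.06, the last on a much dimmer probe set, and their groups overlapped as well.

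Fabp3, the heart-type protein also found in lactating mammary gland, gave 8.78, 8.73 and 8.59 in wild-type and 8.84, 8.41 and 8.69 in knockout cells. Both the highest and the lowest of these 6 values came from knockout cells, and the difference was -0.05 (SE 0.12). A second, dimmer Fabp3 probe set gave 3.51 ± 0.07 and 3.73 ± 0.22 (SD, n = 3 each) with overlapping groups. Fabp7, the brain-type protein of radial glia and some breast tumours, gave 3.43, 3.46 and 3.19 in wild-type and 3.23, 2.98 and 3.25 in knockout cells, a difference of -0.21 (95% interval -0.46 to 0.04) on a dim probe set. Knockout array 2 had the lowest value of all arrays for Fabp3, Fabp5 and Fabp7, and also for Lpl. Without it the differences were 0.07 for Fabp3, 0.07 for Fabp5, -0.12 for Fabp7 and -0.01 for Lpl.

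Fabp4 sits in a cluster of related genes on chromosome 3 in the RefSeq annotation, in the order Fabp5, Pmp2, Fabp9, Fabp4 and Fabp12. The 3 cluster genes outside the set were tested with all genes, and none passed: Fabp12 had a difference of 0.23 (SE 0.10, adjusted p = 0.51), Fabp9, known from testis, 0.09 (SE 0.06, adjusted p = 0.66) and Pmp2, a myelin protein, -0.05 (SE 0.16, adjusted p = 0.94). All 3 were dim, with wild-type means of 3.33, 2.18 and 2.34.

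**Figure D2:**
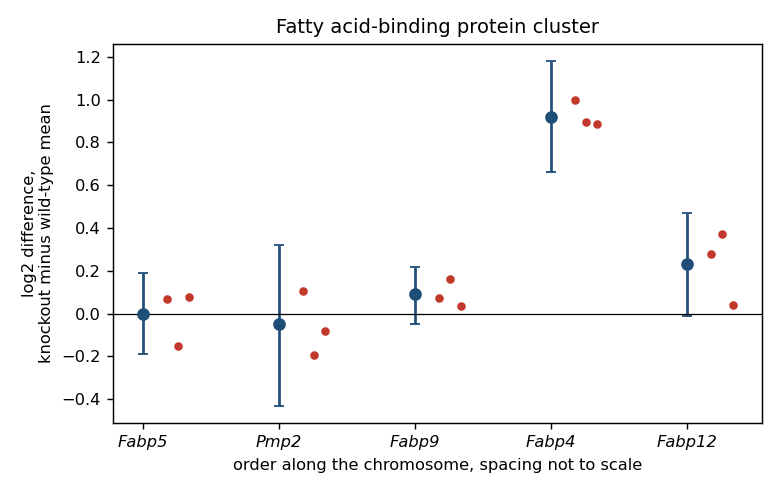
Difference in log2 signal between knockout and wild-type cells for the 5 clustered genes, in chromosome order; blue points with bars are the limma estimate and its 95% interval, and red points are the knockout arrays minus the wild-type mean. Fabp4 stands at 0.92, and the interval of each of the other genes holds 0.

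The uptake genes were dim and overlapped between the genotypes. Cd36, the scavenger receptor and fatty acid translocase, gave 2.23, 2.19 and 2.26 in wild-type and 2.34, 2.53 and 2.06 in knockout cells. The knockout values lay on both sides of the wild-type ones, and the probe set exceeded only 8.2% to 14.6% of genes on any array. Lpl, lipoprotein lipase, gave 3.88, 4.13 and 4.37 in wild-type and 4.04, 3.78 and 4.20 in knockout cells, a difference of -0.12 (95% interval -0.48 to 0.24). Its second probe set was dimmer still, with 1.79 ± 0.14 and 1.90 ± 0.05 (SD, n = 3 each). The arrays carried no detection call, so these values do not show whether either gene was transcribed.

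Pparg, the nuclear receptor of the set, gave 3.50, 3.58 and 3.40 in wild-type and 3.44, 3.61 and 3.51 in knockout cells. The groups overlapped, the difference was 0.02 (95% interval -0.15 to 0.19), and the signal exceeded 32.0% to 36.4% of genes. Of the droplet genes, Plin2, the perilipin that coats droplets in most cells and in milk-secreting epithelium, gave 8.80, 8.79 and 8.85 in wild-type and 8.76, 8.91 and 8.80 in knockout cells. It was among the brighter probe sets, above at least 92.6% of genes on every array, and its difference was 0.01 (95% interval -0.13 to 0.15). Cidec, which promotes the fusion of droplets in adipocytes, gave 3.55, 3.59 and 3.67 in wild-type and 3.21, 3.29 and 3.37 in knockout cells. The groups were apart by 0.18, and the difference was -0.31 (SE 0.06), on a probe set above 27.9% to 37.6% of genes. The Cidec difference did not pass the threshold over all genes, in the main analysis or in any of the 12 alternatives.

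Groups that did not overlap were found for 3 of the 10 members, 2 higher and 1 lower, and for 16.9% of all genes, 8.79% higher and 8.10% lower. The 2 higher ones, Apod and Fabp4, were chosen by this contrast, so nothing is read from this count either. The signs of Fabp3, Fabp5, Cd36, Pparg and Plin2 depended on the analysis: each was above 0 in some alternatives and below 0 in others, within -0.15 and 0.21. Apod, Fabp4, Fabp7, Lpl and Cidec kept their signs in every alternative that could include them, but Lpl only barely, with 0.00 without wild-type 3. Fabp7 and Cd36 were too dim for the alternative that left out the dimmest 30% of genes.

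**Figure D3:**
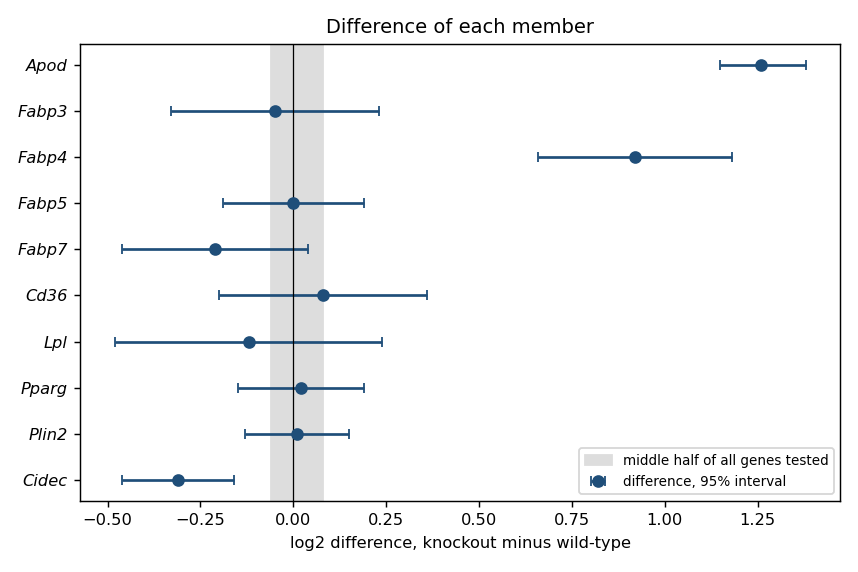
Difference in log2 signal between knockout and wild-type cells for the 10 genes, with 95% intervals from limma; the grey band spans the quartiles of all genes tested (-0.06 to 0.08). Apod (1.26) and Fabp4 (0.92) stand to the right of the band, Cidec (-0.31) to the left, and the intervals of the other genes hold 0.

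Around these members, 120 measured genes of lipid handling in 5 lists were tested with all genes. Lcn2 was the only one that passed, as higher, and none passed as lower, beside 0.437% of all genes. An unadjusted p under 0.05 was found for 16 of the 120 (13.3%) and for 10.2% of all genes. The median difference over the 120 genes was 0.00, with 60 higher and 60 lower in knockout cells, and 28 (23.3%) had groups that did not overlap, beside 16.9% of all genes.

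Of 22 other lipid carriers 1 rose: Lcn2, a secreted lipocalin like Apod that binds bacterial siderophores. It gave 8.18, 8.21 and 8.16 in wild-type and 8.96, 8.81 and 8.93 in knockout cells, 1.64-fold higher (limma, difference 0.72, SE 0.06, adjusted p = 0.0081). The call was lost without wild-type 1 (adjusted p = 0.052), wild-type 2 (0.053), wild-type 3 (0.060), knockout 1 (0.063) or knockout 3 (0.062), and with the replicate block (0.12). The next genes of this list were Apom, a lipocalin of lipoproteins (-0.12, adjusted p = 0.50), and Crabp1, a cytosolic carrier of retinoic acid (0.21, adjusted p = 0.50). The list's median was 0.03.

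Of 22 genes of uptake and lipoprotein lipolysis none passed, and the median was 0.01. Groups that did not overlap were found for 5 of the 22, 3 higher and 2 lower, beside 16.9% of all genes. Gpihbp1, which carries the lipase to the capillary wall, had 0.29 (SE 0.07, adjusted p = 0.18). The lipase maturation factors Lmf1 and Lmf2 had 0.25 (adjusted p = 0.26) and 0.20 (adjusted p = 0.27). These were the 3 higher ones, and with an intensity trend Lmf2 passed (adjusted p = 0.022). The 2 lower ones were Slc27a1, a fatty acid transport protein (-0.20, adjusted p = 0.32), and Lipg, endothelial lipase (-0.08, adjusted p = 0.65). Slc27a2, another fatty acid transport protein, had the largest difference of the list (0.41, SE 0.14, limma adjusted p = 0.40). Its groups overlapped and its probe set was dim, with a wild-type mean of 2.60. Groups also overlapped for the lipase cofactor Apoc2 (-0.11) and the lipase inhibitor Angptl4 (0.00).

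Of 28 droplet and triglyceride genes none passed, and the median was 0.00. Abhd5, the coactivator of adipose triglyceride lipase, had -0.17 (adjusted p = 0.36), Lpin2, a phosphatidate phosphatase, 0.17 (adjusted p = 0.43) and the perilipin Plin4 0.15 (adjusted p = 0.49). For Lpin2 the mean of its probe sets gave -0.05. Of 26 genes of fatty acid oxidation none passed, with a median of -0.02. Cpt1a, which admits fatty acids to mitochondria, had 0.23 (SE 0.05, adjusted p = 0.16, and 0.011 with an intensity trend), Pdk4, a brake on glucose oxidation, -0.26 (adjusted p = 0.25) and the mitochondrial carrier Ucp3 -0.21 (adjusted p = 0.28).

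Of 22 partners, relatives and regulators of PPARG none passed, and the median was -0.06. The mean was lower in knockout cells for 15 of the 22, beside 10751 of all 22180 genes. On every knockout array 6 of the 22 were lower and 1 higher, beside 8.10% and 8.79% of all genes. Cebpd, among the lower ones, had -0.35 (SE 0.11, limma adjusted p = 0.37). Ppargc1a, a coactivator of nuclear receptors, gave 5.40, 5.37 and 5.24 in wild-type and 4.92, 4.59 and 4.80 in knockout cells, a difference of -0.57 (SE 0.10, limma adjusted p = 0.083). It passed the threshold without the dimmest 30% of genes (adjusted p = 0.042) and with an intensity trend (adjusted p = 0.010). Ebf1, an early factor of adipocyte commitment, had 0.49 (SE 0.09, adjusted p = 0.12), and the zinc-finger factor Klf5 had -0.18 (adjusted p = 0.26). With the trend Ebf1 and Klf5 passed as well (adjusted p = 0.017 and 0.012), as did Lmf2 and Cpt1a of the other lists.

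**Figure D4:**
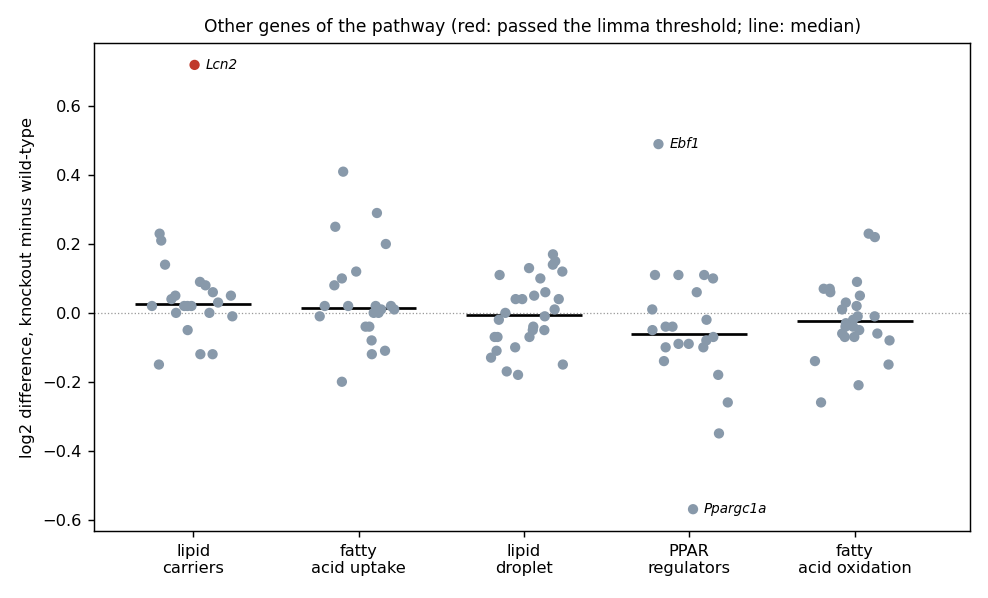
Difference in log2 signal between knockout and wild-type cells for the 120 other genes of the pathway, 1 point per gene in 5 lists, with the list median as a line; red marks genes past the limma threshold. Lcn2 (0.72) is the only red point, and Ppargc1a (-0.57) and Ebf1 (0.49) are the largest other differences.

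Fabp4, Cd36, Lpl, Pparg and Cidec also mark adipocytes, Fabp4 and Cd36 macrophages and endothelium, and Apod and Fabp7 glia, so markers of these cells were read beside them. Of 13 adipocyte markers none passed, with Adipoq, the defining one, at 2.72 ± 0.17 and 2.65 ± 0.12 (SD, n = 3 each), above no more than 20.9% of genes on any array. Their summed linear signal was 191 to 197 on wild-type and 192 to 204 on knockout arrays. Car3 (0.29), Retn (0.17) and Gpd1 (0.13) were higher on every knockout array, and Slc2a4 (-0.08) was lower. That is 3 higher and 1 lower of the 13, beside 8.79% and 8.10% of all genes. None of 14 endothelial markers passed either (summed signal 246 to 255 and 252 to 261), and Pecam1 had a difference of 0.07. Robo4 (0.23) and Sox17 (0.22) were higher on every knockout array, and Kdr (-0.32) and Tek (-0.22) were lower. That is 2 higher and 2 lower of the 14, beside 8.79% and 8.10% of all genes. Of 14 macrophage markers none passed, and 11 had a higher mean in knockout cells, beside 11429 of all 22180 genes. On every knockout array 4 of the 14 were higher and 0 lower, beside 8.79% and 8.10% of all genes. The summed signal was 504 to 543 on wild-type and 555 to 597 on knockout arrays. It is mostly that of Cd14 (0.17) and Cd68 (-0.05) and says little of the other markers. The common leukocyte marker Ptprc was above no more than 12.1% of genes, and the macrophage receptor Mrc1 had a difference of 0.45 (adjusted p = 0.11). Of 11 Schwann and neural crest markers Sox10 rose, by 1.47 (SE 0.12, limma adjusted p = 0.0093, and 0.052 without wild-type 1 and 0.062 without knockout 3). Tfap2b (0.41) and Cdh19 (0.38), both dim, and Erbb3 (0.12) were also higher on every knockout array, without passing. S100b (-0.14) and Tfap2a (-0.16) were lower on every one. These were 4 higher and 2 lower markers, beside 8.79% and 8.10% of all genes. The summed signal, 528 to 563 and 552 to 599, is mostly that of Tfap2a and Erbb3. No marker can be at 0 on this scale. The part of these cell types in the Apod and Fabp4 differences was not tested, and more cells of a type cannot be told apart from more RNA per cell.

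Epithelial identity was read from 11 markers, with Krt8 at 10.32 ± 0.02 in wild-type and 10.47 ± 0.03 in knockout cells (SD, n = 3 each). Their summed signal, 4077 to 4164 on wild-type and 4088 to 4138 on knockout arrays, is mostly that of Krt8 (0.15) and Krt18 (0.14). It says little of the others. The mean log2 level of the list was 6.71 to 6.72 on wild-type and 6.57 to 6.62 on knockout arrays. Of the 11 markers 4 were higher and 5 lower on every knockout array, beside 8.79% and 8.10% of all genes. The higher ones were Krt8, Krt18, Krt19 (0.08) and Ehf (0.22). Epcam (-0.35), Esr1 (-0.22), Gata3 (-0.20), Krt14 and Cdh1 were the lower ones, of which the last 2 passed. The basal keratin Krt14 (-0.66, adjusted p = 0.0096) and the E-cadherin gene Cdh1 (-0.43, adjusted p = 0.022) fell. With 1 array left out their adjusted p was 0.045 to 0.073 and 0.098 to 0.13, and only Krt14 without wild-type 1 was clearly past the threshold. Of 12 fibroblast markers Pdgfrb fell (-0.67, adjusted p = 0.0066, and 0.045 to 0.050 with 1 array left out). Including it, 4 of the 12 were lower on every knockout array and 4 higher, beside 8.10% and 8.79% of all genes. The other lower ones were Col1a1 (-0.33, limma adjusted p = 0.24), Col1a2 (-0.19, adjusted p = 0.30) and Col3a1 (-0.19, adjusted p = 0.38). The higher ones were Dcn (0.43, adjusted p = 0.10), Postn (0.37, adjusted p = 0.11), Fbln1 (0.19, adjusted p = 0.45) and Pdgfra (0.10, adjusted p = 0.56). None of these but Pdgfrb passed. The summed signal of this list, 5059 to 5109 and 4966 to 5122, is mostly that of Vim (-0.01) and says little of the others. Small nucleolar RNA genes named Snord, a sign of how RNA was prepared, had a median difference of -0.19 over 47 genes. The mean was lower in knockout cells for 44 of the 47, beside 10751 of all 22180 genes. On every knockout array 20 of the 47 were lower and 0 higher, beside 8.10% and 8.79% of all genes. The part of the Snord genes, or of RNA preparation, in the members' differences was not tested.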

How the data were processed

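The authors deposited log2 signals for 41345 probe sets on 6 arrays, made with Affymetrix Expression Console 1.4.1.46 per the submitters' processing notes. How background was corrected, arrays normalized and probes summarised, and on which genome build, the sources used here do not give. The logarithm's base was taken from the range of the values (0.37 to 12.37). Nearly equal array medians show that arrays had been scaled together, and no further scaling was applied.

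The platform annotation gave 23521 probe sets 1 gene symbol, and the brightest probe set was kept for each of 22180 genes. Knockout and wild-type cells were compared by limma 3.58.1 under R 4.3.3 (functions lmFit and eBayes, no filter, no covariate, two-sided), with Benjamini-Hochberg adjustment over all genes and a threshold of 0.05. Standard errors and 95% intervals are limma's, and differences are knockout minus wild-type. The fit was tested on simulated data. The number of arrays limits the precision.

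The members and lists were chosen with earlier results of these data known. The 5 pathway lists held 135 genes and the 6 marker lists 80, of which 120 and 75 were measured. Genes named are the members, Slk, the 3 of each pathway list with the smallest p and any that passed, listed neighbours of Fabp4 and Fabp5, and the 3 genes closest in pattern to Apod and to Fabp4, leaving out uncharacterised, receptor-cluster and small RNA symbols. Markers named in the text, Slc27a1, Slc27a2, Lipg, Apoc2, Angptl4 and Cebpd, and Ppargc1a's and Ebf1's values by array, were picked after values were seen. Chromosome order and promoter sequences are RefSeq's, on GRCm38.p6.

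Alternatives were an intensity trend, a replicate block, averaged probe sets per gene, arrays centred on their medians or quantile-normalized, a fit without the dimmest 30% of genes, and fits without each array.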

Additional observations from a re-analysis of the deposited data

How the results depend on the processing

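Slk kept its direction and its call in all 12 alternatives. With the replicate block 1 member passed as higher (Apod) and 0 pathway genes did, against 2 and 1 in the analysis without it. The replicate numbers are shared between the groups, but deviations of same-numbered arrays correlated at only 0.04, 0.02 and -0.07, so they were not treated as pairs. Without the dimmest 30% of genes 1 pathway gene, Ppargc1a, passed as lower, and with an intensity trend 4 pathway genes passed as higher (Lcn2, Ebf1, Cpt1a and Lmf2) and 2 as lower (Ppargc1a and Klf5). Over all genes 97 passed in the main analysis, 6 with the block, 206 without the dimmest 30% and 441 with the trend, and the cause was not tested. With single arrays left out, 1 to 2 members and 0 to 1 pathway genes passed as higher, and 16 to 28 of all genes passed. The sign of Lpin2 turned with the mean of its probe sets (-0.05). The median over the members lay between -0.03 and 0.03 in all alternatives, and that of their other probe sets, which could not be computed where probe sets were averaged or dim genes left out, between 0.05 and 0.12. Dim probe sets compress differences, which applies to Cd36, Fabp7, Pparg, Cidec and, on wild-type arrays, Apod.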
